A study of Mus musculus with 2 samples.

Results

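Lymphocyte positioning in the germinal centre rests on a small set of G protein-coupled receptors and the G protein behind one of them, and 10 such genes are described here across 2 libraries of sorted germinal centre B cells. The 10 genes are S1pr1, S1pr2, S1pr4, Gna13, Gpr183, Cxcr4, Cxcr5, Ccr6, Ccr7 and Cxcr3. They were picked by symbol from the 41214 genes of the deposited table, where each has 1 row, and all 10 reached 100 normalized reads in at least 1 library, the floor used, as did 10443 genes in all. One library is labelled Cbl-/-Cblb-/-, lacking by its label the E3 ubiquitin ligases Cbl and Cblb, and the other is labelled wild type. Mice of both genotypes were C57BL/6 and were given an intravenous dose of 1000000000 sheep red blood cells. On day 10 their spleens gave the cells, sorted as CD138-negative cells with B220, Fas and GL7 on the surface. The number of mice, any pooling, the age of the mice and the construction of the mutant alleles are not stated in the labels. With 1 library per genotype, no difference has a replicate check and no test was run. Intervals below are 95% intervals that cover counting error only.

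S1PR2 signals through Galpha13, the product of Gna13, and holds B cells in the germinal centre, whereas S1PR1 draws lymphocytes out of lymphoid tissue toward sphingosine-1-phosphate in blood and lymph. CXCR4 places cells in the dark zone toward CXCL12, and CXCR5 draws them to CXCL13 in the follicle and light zone. GPR183 (EBI2) follows oxysterols to the outer follicle, and CCR7 follows CCL19 and CCL21 to the T cell zone. CCR6, the receptor for CCL20, is carried by naive and memory B cells, and CXCR3, a receptor for interferon-induced chemokines, by subsets of memory B cells and by T cells.

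The libraries held 38223328 reads (labelled Cbl-/-Cblb-/-) and 26749540 reads (labelled wild type) assigned to genes. The targeted genes were not lower in the Cbl-/-Cblb-/- labelled library: Cbl had 1693 reads there and 118 in the wild type labelled library, while Cblb had 4061 reads in the Cbl-/-Cblb-/- labelled library and 700 in the wild type labelled library. In normalized reads Cbl was 7.01-fold and Cblb 2.83-fold higher in the Cbl-/-Cblb-/- labelled library. The reads are summed over each whole gene, and exchanged labels and mutant alleles that keep most exons cannot be told apart here. Every direction below is therefore one between labelled libraries. The title of the deposited table names another cell source, while its column names and mouse gene identifiers match the labels. Ratios also followed gene length over all genes, with medians on the log2 scale of -1.68 in the shortest and 1.35 in the longest of 8 length groups. An adjusted ratio, the residual of a fit on gene length and GC content, is given for the genes and lists beside the ratio as deposited. A fit on length alone is given where it moves a call or a sign. For the targeted genes the adjusted log2 ratio was 2.16 for Cbl and 0.61 for Cblb. A fit on length alone gave 2.30 for Cbl and 0.81 for Cblb. The length group of Cblb had a median log2 ratio of 0.87. Both genes thus stayed higher in the Cbl-/-Cblb-/- labelled library, by less than as deposited. Of all genes over the floor, 38.6% exceeded 1.5-fold upward and 31.9% downward, or 26.4% and 30.3% after adjustment, and list counts below stand beside these shares. Of the 8 germinal centre B cell markers listed, all passed the floor, with a summed level of 545 FPKM in the Cbl-/-Cblb-/- labelled library and 469 FPKM in the wild type labelled library. These 8 had a median log2 ratio of 0.10 (adjusted 0.080), with 3 at least 1.5-fold higher and 0 lower (adjusted 1 and 0). General B cell markers summed to 2196 FPKM in the Cbl-/-Cblb-/- labelled library and 6494 FPKM in the wild type labelled library, with 1 of 6 higher and 4 lower (adjusted 0 and 3). FPKM here is normalized reads per base of gene length, scaled by a total shared by both libraries.

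Promoter sequence is shown for the gene with the widest gap between the libraries, Ccr6, and for 2 of the most abundant genes, S1pr2 and Cxcr4. Each run is the 250 bases before a RefSeq transcription start on GRCm38.p6, 5′ to 3′ on the strand of the gene. Capitals mark matches on either strand to any of 4 short motifs. These are TATAAA (core of a basal promoter element), CACCC (bound by KLF factors), GTAAACA (FOXO factors) and TTCNNNGAA (STAT factors and BCL6). Of 32851 promoter windows in the RefSeq set, 12.4% hold TATAAA, 52% CACCC, 3.17% GTAAACA and 7.02% TTCNNNGAA.
Ccr6, first of its starts, chr17:8235793-8236042, plus strand: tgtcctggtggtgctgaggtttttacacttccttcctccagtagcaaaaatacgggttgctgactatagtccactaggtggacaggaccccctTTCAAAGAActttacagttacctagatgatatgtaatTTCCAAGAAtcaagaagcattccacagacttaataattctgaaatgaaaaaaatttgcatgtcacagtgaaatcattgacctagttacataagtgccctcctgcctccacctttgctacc
S1pr2, chr9:20976794-20977043, minus strand: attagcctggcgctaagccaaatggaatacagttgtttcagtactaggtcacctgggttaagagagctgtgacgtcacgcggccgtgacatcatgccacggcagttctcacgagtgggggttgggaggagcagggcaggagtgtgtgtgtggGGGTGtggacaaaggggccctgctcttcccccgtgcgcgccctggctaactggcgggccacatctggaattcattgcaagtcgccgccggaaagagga
Cxcr4, chr1:128592300-128592549, minus strand: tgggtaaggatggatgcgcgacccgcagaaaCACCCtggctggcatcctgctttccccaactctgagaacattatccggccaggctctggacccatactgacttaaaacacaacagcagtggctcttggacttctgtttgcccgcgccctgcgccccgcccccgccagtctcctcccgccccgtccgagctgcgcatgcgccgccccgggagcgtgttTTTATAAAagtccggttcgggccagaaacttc
The first Ccr6 window holds TTCNNNGAA at 2 places, the first bases of which lie at positions -157 and -120 from the start. Cxcr4 has TATAAA at positions -30 to -25, overlapped by the same motif on the other strand, and CACCC at positions -219 to -215. S1pr2 has CACCC once, on the other strand, and a window of 59.2% GC with 14 CpG sites, against 41.2% GC and 1 CpG site in the first Ccr6 window. The second Ccr6 window, not shown, has 46% GC, 7 CpG sites and no match to any of the 4 motifs. RefSeq windows were matched for 7 of the 10 genes, 8 windows in all. CACCC lay in 3 of the 8, TATAAA in 1, TTCNNNGAA in 1 and GTAAACA in 0. A match describes these letters and is not shown to be a bound site.

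In FPKM on the deposited gene lengths, the confinement receptor was the most abundant of the 10 genes in both libraries. S1pr2 (ENSMUSG00000043895, chromosome 9, 20962361 to 20976781, minus strand of GRCm38) stood at 123 FPKM in the Cbl-/-Cblb-/- labelled library and 139 FPKM in the wild type labelled library. Those levels were above 96.9% of all genes over the floor in the Cbl-/-Cblb-/- labelled library and 94.0% in the wild type labelled library. On the scale of normalized reads it had 11222 in the Cbl-/-Cblb-/- labelled library and 12720 in the wild type labelled library, a 1.13-fold lower value (1.104 to 1.163). The log2 ratio was -0.18 as deposited, 0.34 when scaled to total reads, 0.069 after adjustment and -0.16 after a fit on length alone, so its sign depends on the reading. Its deposited length of 2815 bases is shorter than the 7971 exonic bases of a newer annotation (GENCODE M21). FPKM and the adjusted ratio rest on the deposited length. At the newer length its FPKM would be lower. Its rank, its share of the receptor family and its FPKM ratios to other genes therefore depend on the length used. In normalized reads, which are not scaled by length, Gna13 (13302) stood above S1pr2 in the Cbl-/-Cblb-/- labelled library. For this and every gene below, fewer cells that carry a transcript and less RNA per cell cannot be told apart.

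Gna13 had more normalized reads in the Cbl-/-Cblb-/- labelled library, but by deposited length it is the longest of the 10 genes. It stood at 13302 normalized reads in the Cbl-/-Cblb-/- labelled library and 7663 in the wild type labelled library, 1.74-fold higher (1.68 to 1.79). Per length this was 63.8 FPKM in the Cbl-/-Cblb-/- labelled library against 36.7 FPKM in the wild type labelled library. The gene (chromosome 11, 109362831 to 109401369, plus strand) is 6421 bases long, and its length group had a median log2 ratio of 0.87 where Gna13 had 0.80. After adjustment for length and GC content its value was -0.13, a reversed sign, and after a fit on length alone it was 0.089. A noncoding gene model on the other strand, Gm11696, shares 151 exonic bases with Gna13, and the labels do not say whether the counting used strand.

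The egress receptor S1pr1 was higher in the Cbl-/-Cblb-/- labelled library at every reading tried. S1pr1 (ENSMUSG00000045092, chromosome 3, 115710433 to 115715072, minus strand) had 1248 reads in the Cbl-/-Cblb-/- labelled library and 200 in the wild type labelled library. After normalization this was 872 against 286, or 3.05-fold higher (2.62 to 3.56). The log2 ratio was 1.60 as deposited, 2.12 when scaled to total reads and 1.59 after adjustment. Its length group, genes of 2895 to 3652 bases, had a median of 0.07.

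S1pr4, another sphingosine-1-phosphate receptor of lymphocytes, went the other way as deposited. It had 767 normalized reads in the Cbl-/-Cblb-/- labelled library and 1552 in the wild type labelled library, 2.02-fold lower (1.86 to 2.20), from 1098 reads in the Cbl-/-Cblb-/- labelled library and 1085 in the wild type labelled library. Its log2 ratio of -1.02 was -0.50 when scaled to total reads and 0.022 after adjustment for length and GC content, but -0.85 after a fit on length alone, still more than 1.5-fold lower. S1pr4 (chromosome 10, 81497747 to 81500132, minus strand) is a single-exon gene of 59.3% GC in its transcript, the highest GC of the 10.

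In FPKM on the deposited lengths, S1pr2 dominated the composition of the receptor family. It made up 80.2% of the summed FPKM of the 5 sphingosine-1-phosphate receptors in the Cbl-/-Cblb-/- labelled library and 81.3% in the wild type labelled library. S1pr1 contributed 5.79% in the Cbl-/-Cblb-/- labelled library against 1.70% in the wild type labelled library, and S1pr4 6.47% in the Cbl-/-Cblb-/- labelled library against 11.7% in the wild type labelled library. S1pr3, which is not among the 10 genes, stood at 11.4 FPKM (7.47%) in the Cbl-/-Cblb-/- labelled library and 9.0 FPKM (5.26%) in the wild type labelled library, and S1pr5 had 9 reads in the Cbl-/-Cblb-/- labelled library and 6 in the wild type labelled library. A ratio of 2 genes within a library does not depend on how the libraries were scaled. S1pr2 exceeded S1pr1 by 13.8-fold in FPKM in the Cbl-/-Cblb-/- labelled library and by 47.8-fold in the wild type labelled library. The S1pr1 to S1pr2 ratio was thus 3.46-fold higher in the Cbl-/-Cblb-/- labelled library (2.97 to 4.04), or 1.52 on the log2 scale after adjustment, where it was 1.79 before. The S1pr4 to S1pr2 ratio was 1.78-fold lower (1.63 to 1.95), a log2 value of -0.84 that became -0.05 after adjustment for length and GC content and -0.69 after a fit on length alone.

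**Figure D1:**
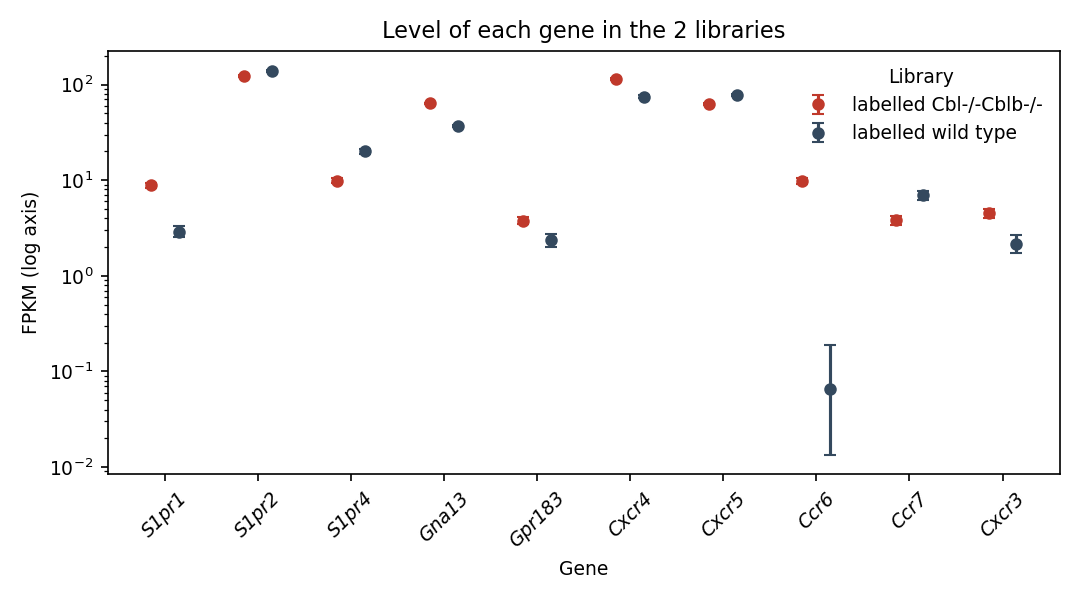
Level of each of the 10 genes in FPKM (log axis) in the Cbl-/-Cblb-/- labelled library (red, left of each pair) and the wild type labelled library (dark, right); bars are exact Poisson 95% intervals of the reads. On the deposited gene lengths S1pr2 is highest in both libraries. Ccr6 shows the widest gap, at 9.85 FPKM in the Cbl-/-Cblb-/- labelled library against 0.0651 FPKM in the wild type labelled library.

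By FPKM on the deposited lengths, the dark zone receptor Cxcr4 ranked second in the Cbl-/-Cblb-/- labelled library. In the wild type labelled library it ranked behind S1pr2 and Cxcr5. Cxcr4 (ENSMUSG00000045382, chromosome 1, 128588199 to 128592293, minus strand) had 6729 normalized reads in the Cbl-/-Cblb-/- labelled library and 4358 in the wild type labelled library, 1.54-fold higher (1.48 to 1.61). The log2 ratio of 0.63 became 0.83 after adjustment and 1.15 when scaled to total reads. Its length group, genes of 1398 to 2185 bases, had a median of -0.85.

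Cxcr5, the receptor that defines follicular homing, differed less. Cxcr5 (ENSMUSG00000047880, chromosome 9, 44511787 to 44561877, minus strand) had 5776 normalized reads in the Cbl-/-Cblb-/- labelled library and 7183 in the wild type labelled library, 1.24-fold lower (1.2 to 1.29). Its log2 ratio was -0.31 as deposited, 0.20 when scaled to total reads and -0.00105 after adjustment, so the sign depends on the scaling. A fit on length alone gave -0.29. Exons of Bcl9l on the other strand overlap 110 of its exonic bases. In FPKM, Cxcr4 exceeded Cxcr5 by 1.82-fold in the Cbl-/-Cblb-/- labelled library, whereas the Cxcr4 to Cxcr5 ratio was 0.948 in the wild type labelled library. The counting interval of that ratio was 0.906 to 0.991, just under 1. Between the libraries the Cxcr4 to Cxcr5 ratio differed 1.92-fold (1.82 to 2.03), higher in the Cbl-/-Cblb-/- labelled library, and by 0.83 on the log2 scale after adjustment, where it was 0.94 before.

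Gpr183 and Ccr7 are the receptors of the outer follicle and T cell zone. By FPKM they lay above 25.3% and 25.4% of genes over the floor in the Cbl-/-Cblb-/- labelled library. In the wild type labelled library these shares were 23.5% for Gpr183 and 47.1% for Ccr7. Gpr183 (chromosome 14, 121952551 to 121965195, minus strand) had 518 reads in the Cbl-/-Cblb-/- labelled library and 157 in the wild type labelled library, or 362 and 225 normalized reads, 1.61-fold higher (1.35 to 1.94). Its log2 ratio was 0.69 as deposited and 0.44 after adjustment for length and GC content, which is under 1.5-fold, but 0.67 after a fit on length alone, which is over it. Ccr7 (chromosome 11, 99144196 to 99155077, minus strand) had 350 reads in the Cbl-/-Cblb-/- labelled library and 313 in the wild type labelled library, or 245 and 448 normalized reads, 1.83-fold lower (1.57 to 2.14). Its log2 ratio was -0.87 as deposited, -0.35 when scaled to total reads, -0.20 after adjustment and -0.53 after a fit on length alone. The value as deposited was close to the -0.85 median of its length group. Relative to Cxcr5, Gpr183 was 2.0-fold higher in the Cbl-/-Cblb-/- labelled library (1.67 to 2.42) and Ccr7 1.47-fold lower (1.25 to 1.73). After adjustment these log2 differences were 0.44 and -0.20, where they were 1.0 and -0.56 before and 0.96 and -0.24 after a fit on length alone. The Ccr7 to S1pr2 ratio was 1.61-fold lower (1.38 to 1.89), and -0.27 on the log2 scale after adjustment, where it was -0.69 before.

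Ccr6 was nearly missing from the wild type labelled library. Ccr6 (ENSMUSG00000040899, chromosome 17, 8236043 to 8257141, plus strand) had 929 reads in the Cbl-/-Cblb-/- labelled library and 3 in the wild type labelled library. That was 649 normalized reads against 4.29, a ratio of 151 with an interval of 51.6 to 735. Its FPKM of 9.85 in the Cbl-/-Cblb-/- labelled library lay above 51.5% of genes over the floor, near S1pr4 (9.89 FPKM) and S1pr1 (8.86 FPKM). In the wild type labelled library its 0.0651 FPKM lay above 0.393% of them. The log2 ratio of 6.94 was 7.37 after adjustment and 7.46 when scaled to total reads, and 99.9% of genes over the floor had a lower ratio. The Ccr6 to Cxcr5 ratio differed 188-fold (64.1 to 914). In the authors' deposited table, which also compares 1 library with 1, Ccr6 had a log2 fold change of 3.32 with a standard error of 1.12 and an adjusted p of 0.944.

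Cxcr3 was also higher in the Cbl-/-Cblb-/- labelled library, at a lower level. Cxcr3 (chromosome X, 101731535 to 101734269, minus strand) had 363 reads in the Cbl-/-Cblb-/- labelled library and 85 in the wild type labelled library, or 254 and 122 normalized reads, 2.09-fold higher (1.64 to 2.68). It is the shortest of the 10 genes at 1731 bases, and the log2 ratio of 1.05 was 1.88 after adjustment. All 5 chemokine receptors together summed most of their FPKM from Cxcr4 and Cxcr5. Cxcr4 supplied 58.5% in the Cbl-/-Cblb-/- labelled library and 45.9% in the wild type labelled library, Cxcr5 32.2% in the Cbl-/-Cblb-/- labelled library and 48.4% in the wild type labelled library, and Ccr6 5.04% in the Cbl-/-Cblb-/- labelled library and 0.0403% in the wild type labelled library.

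**Figure D2:**
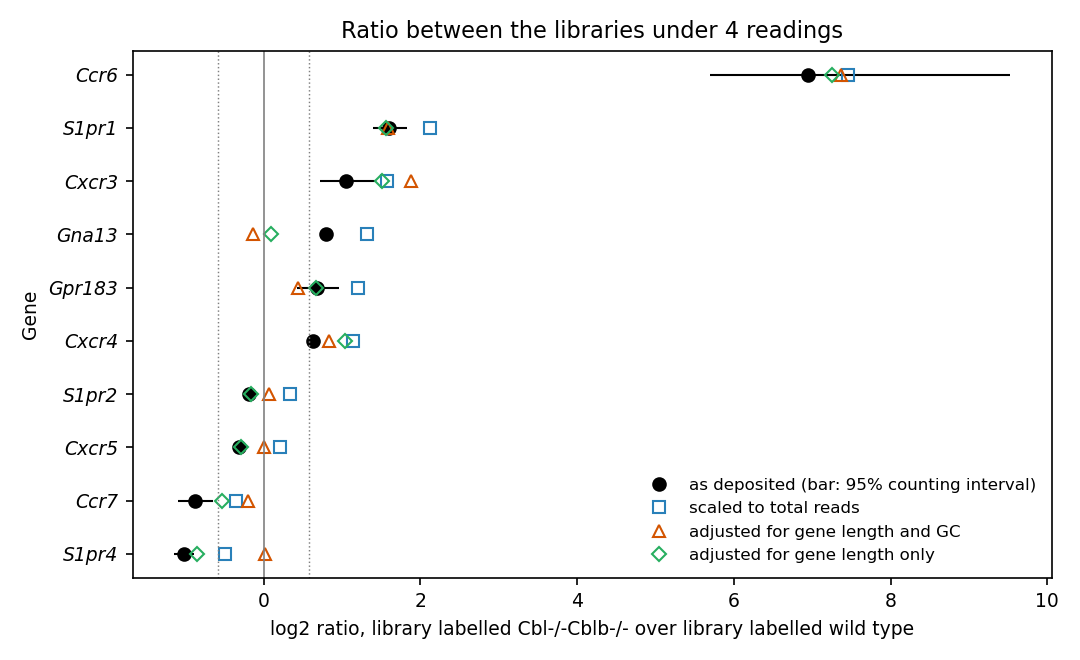
Log2 ratio of each gene, the Cbl-/-Cblb-/- labelled library over the wild type labelled library, as deposited with its 95% counting interval (black), scaled to total reads (blue squares), adjusted for gene length and GC content (orange triangles) and adjusted for length alone (green diamonds); dotted lines mark 1.5-fold. Ccr6, S1pr1, Cxcr3 and Cxcr4 lie past 1.5-fold higher under all 4 readings drawn, while the triangles of S1pr4, S1pr2 and Cxcr5 lie near 0 and the diamond of S1pr4 lies at -0.85.

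Counted over the 10 genes, 6 were higher by 1.5-fold or more in the Cbl-/-Cblb-/- labelled library (Ccr6, S1pr1, Cxcr3, Gna13, Gpr183 and Cxcr4), where 38.6% of all genes over the floor were. The other direction held 2 (S1pr4 and Ccr7), where 31.9% of all genes were at least 1.5-fold lower. At 2-fold the counts were 3 higher and 1 lower, against 27.8% and 23.3% of all genes. After adjustment for length and GC content 4 of the 10 stayed at least 1.5-fold higher (Ccr6, S1pr1, Cxcr3 and Cxcr4), where 26.4% of all genes did so, and 0 were at least 1.5-fold lower, against 30.3%. At 2-fold the adjusted counts were 3 higher and 0 lower, against 15.6% and 18.3% of all genes. Counts after a fit on length alone, chosen after seeing the data, held 5 at least 1.5-fold higher (Gpr183 as well) and 1 lower (S1pr4), against 28.2% and 33.9% of all genes, and 4 and 0 at 2-fold, against 17.9% and 21.6%. Centred on the median of all genes, 4 were at least 1.5-fold higher (Ccr6, S1pr1, Cxcr3 and Gna13) and 2 lower, against 34.6% and 35.6%. Of the 6 called higher as deposited, Ccr6 passed the floor only in the Cbl-/-Cblb-/- labelled library, where it is high. Scaled to total reads, 6 were higher and 0 lower at 1.5-fold, against 52.1% and 21% of all genes, and the same counts held at 2-fold, against 41.2% and 14.1%. The median log2 ratio of the 10 was 0.66 as deposited and 0.25 after adjustment, beside 0.15 and -0.057 for all genes. Just inside the 1.5-fold limit lay Cxcr4 (1.54) and Gpr183 (1.61), and the nearest gene outside it was Cxcr5 (1.24-fold lower). The adjusted p-values of the 10 ran from 0.944 to 0.977 in the authors' deposited table.

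**Figure D3:**
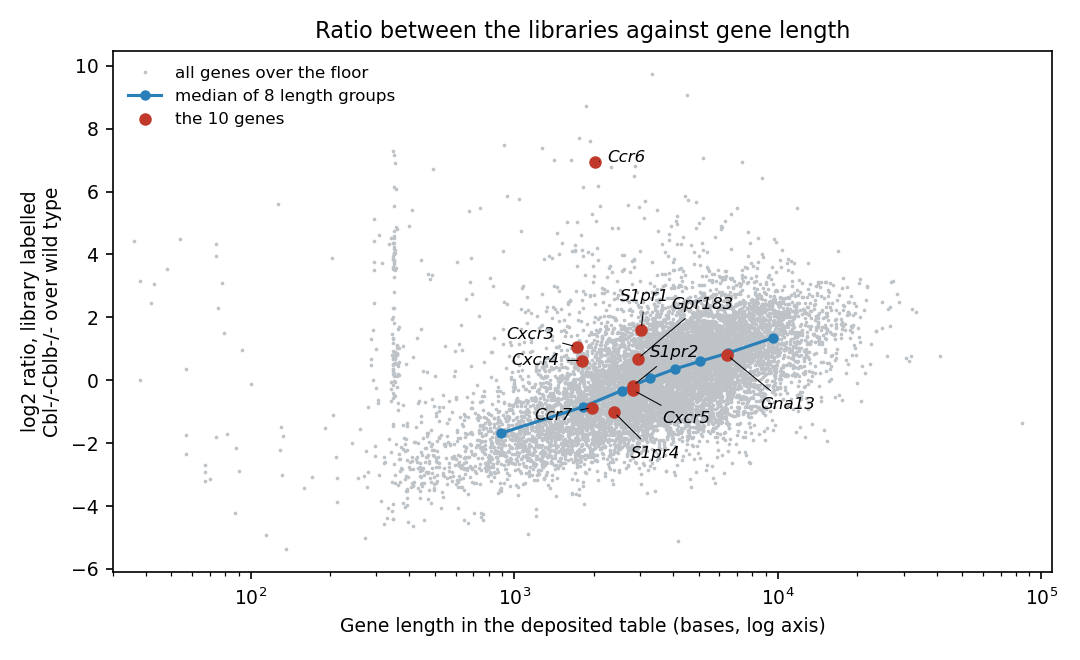
Log2 ratio between the libraries (Cbl-/-Cblb-/- labelled library over wild type labelled library) against gene length in bases (log axis) for genes over the floor (grey), with the median of 8 length groups (blue) and the 10 genes (red). Gna13 and Ccr7 sit on the blue line, S1pr1, Cxcr3 and Cxcr4 above it, S1pr4 below it, and Ccr6 far above at 6.94.

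By level per deposited length S1pr2 came first in both libraries, and the order below it differed. The Cbl-/-Cblb-/- labelled library ran S1pr2, Cxcr4, Gna13 and Cxcr5 (123, 115, 63.8 and 62.9 FPKM), where the Gna13 to Cxcr5 ratio of 1.01 had a counting interval that held 1 (0.987 to 1.04). After these came S1pr4, Ccr6 and S1pr1 and then Cxcr3, Ccr7 and Gpr183 (4.51, 3.81 and 3.79 FPKM). There S1pr4 and Ccr6 were not separated by counting error (0.919 to 1.10), nor were Ccr7 and Gpr183 (0.875 to 1.15). The wild type labelled library ran S1pr2, Cxcr5, Cxcr4 and Gna13 (139, 78.3, 74.2 and 36.7 FPKM), then S1pr4 (20.005 FPKM) and Ccr7 (6.97 FPKM). S1pr1, Gpr183 and Cxcr3 followed (2.91, 2.35 and 2.16 FPKM), and Ccr6 came last. The ratios of S1pr1 to Gpr183 (0.999 to 1.53) and of Gpr183 to Cxcr3 (0.829 to 1.43) had intervals that held 1.

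Around these receptors, 8 lists of pathway genes were read for context, with 58 of 95 genes over the floor. Of these, 24 (41.4%) were higher and 12 (20.7%) lower by 1.5-fold or more, against 38.6% and 31.9% of all genes. After adjustment 20 were higher and 14 lower. Several of those called higher passed the floor only in the library where they are high, so the counts describe the lists and support nothing further.

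Genes that set the receptors' output lay in both directions. Of 13 genes for regulators of G protein signalling, receptor kinases and arrestins over the floor, 5 were higher and 3 lower (adjusted 4 and 4), and their median was 0.13 (adjusted -0.46). Rgs10, which shortens Gi signals, had a log2 ratio of -1.58 (adjusted -1.02), Arrb2, an arrestin that uncouples receptors, -1.57 (adjusted -1.0) and Rgs18 1.47 (adjusted 0.98). Among 21 genes for Gi proteins and migration effectors, 9 were higher and 6 lower (adjusted 8 and 8), and their median was 0.13 (adjusted -0.25). Prex1, a Rac exchange factor, stood at 2.11 (adjusted 1.47), the PI3 kinase subunit Pik3cg at 1.88 (adjusted 0.87) and the beta subunit Gnb2 at -1.86 (adjusted -1.06).

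Of 4 regulators of S1pr1, 1 was at least 1.5-fold higher and 0 lower, and their median log2 ratio was 0.19 (adjusted 0.17). The gene called higher was Foxo1 as deposited and Klf2 after adjustment. On length alone 1 was higher and 0 lower, with a median of 0.0021. Klf2, a transcription factor that drives S1pr1 in lymphocytes, had 851 normalized reads in the Cbl-/-Cblb-/- labelled library and 1202 in the wild type labelled library, a log2 ratio of -0.50 that was 0.95 after adjustment. The parts of gene length and GC content in that change of sign were not separated. Foxo1, which acts upstream of Klf2 in T cells, stood at 0.68 (adjusted 0.06), and Cd69, whose product removes S1PR1 from the cell surface, at 0.19 (adjusted -0.06). Of 6 genes of sphingosine-1-phosphate metabolism over the floor, 3 were higher and 2 lower, with 2 and 0 after adjustment. The list median was 0.24 (adjusted 0.52). Sgpl1, the lyase that destroys sphingosine-1-phosphate, stood at 1.74 (adjusted 1.02), the phosphatase gene Sgpp1 at 0.86 (adjusted 0.58) and the kinase gene Sphk2 at -0.87 (adjusted -0.39).

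**Figure D4:**
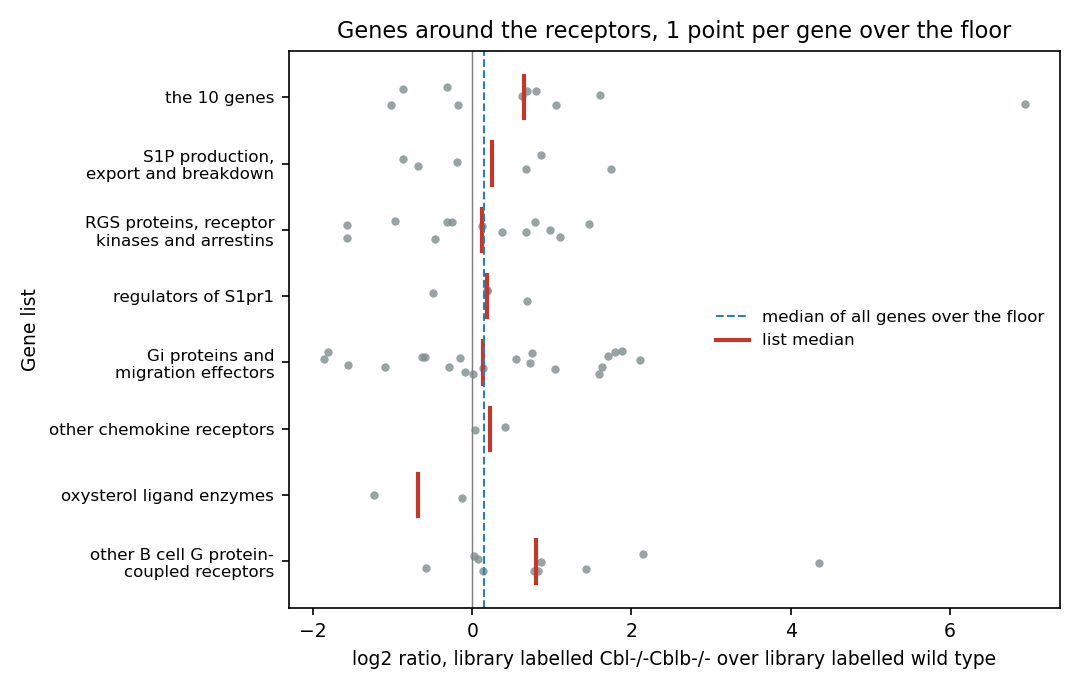
Log2 ratio between the libraries (Cbl-/-Cblb-/- labelled library over wild type labelled library) for each gene over the floor in the receptor set and in 7 of the pathway lists, 1 point per gene with random vertical spread; red bars are list medians and the dashed line the median of all genes, 0.15. Of the pathway lists drawn, the other B cell G protein-coupled receptors have the highest median, 0.80; no gene of the chemokine ligand list passed the floor.

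The chemokine ligand genes had few reads in both libraries. For the 8 chemokines that bind these receptors, the most reads of any gene were 33 in the Cbl-/-Cblb-/- labelled library and 7 in the wild type labelled library, and Cxcl13, Ccl20 and Ccl21a had 0 in both.

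Markers of other B cell states and cell types went in both directions between the libraries. Of 3 naive follicular B cell markers found, 1 was at least 1.5-fold higher and 0 lower (adjusted 2 and 0), with sums of 127 FPKM in the Cbl-/-Cblb-/- labelled library and 130 FPKM in the wild type labelled library. Cd38 had a log2 ratio of 1.57 (adjusted 1.08), Fcer2a -0.09 (adjusted 0.34) and Klf2 -0.50 (adjusted 0.95). Among 5 marginal zone B cell markers 4 were higher and 0 lower (adjusted 3 and 0), with sums of 77.1 FPKM in the Cbl-/-Cblb-/- labelled library and 68.05 FPKM in the wild type labelled library. Of those 4, 2 passed the floor only in the Cbl-/-Cblb-/- labelled library. Their part in the results for Ccr6 and S1pr1 was not tested. For T cells, which carry Ccr6, Ccr7 and Cxcr3, 1 of 8 markers passed the floor and the sums were 2.86 FPKM in the Cbl-/-Cblb-/- labelled library and 9.30 FPKM in the wild type labelled library. That 1 marker, Lat, supplied 1.84 FPKM in the Cbl-/-Cblb-/- labelled library and 7.78 FPKM in the wild type labelled library. Cd3e, Cd4, Cd3d and Cd28 had 5, 12, 2 and 61 reads in the Cbl-/-Cblb-/- labelled library, against 0, 2, 15 and 3 in the wild type labelled library. Macrophage markers, 5 of 8 over the floor, summed to 21.2 FPKM in the Cbl-/-Cblb-/- labelled library and 39.6 FPKM in the wild type labelled library, with 1 higher and 3 lower, and a median of -1.02. After adjustment these were 1 and 0, with a median of 0.35. In the Cbl-/-Cblb-/- labelled library, dendritic cell markers summed to 5.64 FPKM, natural killer cell markers to 2.30 FPKM and stromal and endothelial markers to 9.11 FPKM, against 5.39, 1.48 and 5.17 FPKM in the wild type labelled library. Of 5 dendritic cell markers 2 passed the floor, with 1 higher and 0 lower (adjusted 1 and 1). Flt3 supplied 4.24 FPKM in the Cbl-/-Cblb-/- labelled library and 4.87 FPKM in the wild type labelled library. Itgax had 225 reads in the Cbl-/-Cblb-/- labelled library, the only one where it passed the floor, against 20. Over the floor were 0 of 4 natural killer cell markers and 1 of 6 stromal and endothelial markers. Plasma cell markers summed to 499 FPKM in the Cbl-/-Cblb-/- labelled library and 432 FPKM in the wild type labelled library, with 2 of 5 higher and 0 lower, as after adjustment. Neutrophil, erythroid and platelet markers each summed to at most 2.36 FPKM in either library.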

How the data were processed

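Libraries were made from RNA of sorted spleen cells with the TruSeq system and read in pairs of 50 bases, per the labels' protocols. DESeq2 1.4.5, featureCounts, TopHat2 2.0.10 and the build GRCm38 are listed in the submitters' processing notes, without their roles. The sources used here give neither strand setting nor annotation release.

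The signal columns deposited hold read counts per gene after scaling by library size, per the file headers. That scaling was not to total reads, which would add 0.52 to the log2 ratios. All values (100%) were whole multiples of their library's smallest positive value within 0.001 read, so reads were recovered. A count test has no residual degrees of freedom with 1 library per group, was not run, and calls no gene. The deposited FPKM values equal normalized reads divided by length and by 1 total shared by both libraries, a relation found from the values. The deposited gene length in bases (an other column) was used as given. The deposited base mean signal was used only to pick rows. The authors' deposited log2 fold changes, standard errors, test score and p-values compare 1 library with 1. They hold 0 genes with an adjusted p under 0.05 and 511 with an unadjusted one.

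Log2 ratios are of normalized reads plus 1, the Cbl-/-Cblb-/- labelled library over that labelled wild type, which understates low genes. Ratio intervals are exact conditional binomial, level intervals exact Poisson, and those of ratios of ratios conditional, all at 95%. Reads have no molecular identifiers. Adjusted ratios are residuals of a least squares fit on log2 length, GC content and their squares over 10386 annotated genes (99.5% of those over the floor). The fit took up 32.1% of the variance. It was tested on simulated counts with a linear length trend only. Those counts held no GC effect or curvature, so the test does not cover the GC and squared terms. GC content, positions and exon overlaps came from GENCODE M21 on GRCm38, promoters from RefSeq. Python 3.11.15, NumPy 2.4.6, SciPy 1.17.1 and pandas 2.3.3 were used.

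The 10 genes, the 8 pathway lists, the 13 marker lists and the 8 ratios between members were chosen with earlier results of these data known. Named list genes are the up to 3 over the floor with the largest absolute log2 ratio in their list. Cxcl13, Ccl20, Ccl21a, S1pr3, S1pr5, Ch25h, Cyp7b1, Lpar6 and the single markers of other cells (Cd38, Fcer2a, Lat, Cd3d, Cd3e, Cd4, Cd28, Flt3 and Itgax) were named after their values were seen. Another pathway list and 1 further marker gene are not reported here.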

Additional observations from a re-analysis of the deposited data

How the results depend on the processing

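Scaling moved every ratio by 1 amount: total reads added 0.52 to the log2 ratios, total reads without immunoglobulin genes 0.51, total reads without ribosomal protein and mitochondrial genome genes 0.31, and centring on the median -0.15. The median log2 ratio of the 10 genes, 0.66, became 1.17, 1.17, 0.96 and 0.51 under these in turn, and 0.25 after adjustment for length and GC content. The count at least 1.5-fold lower, 2 as deposited, became 0, 0 and 1 under the first 3, 0 after adjustment and 1 with a floor of 500. The count at least 1.5-fold higher, 6 as deposited, was 4 under median centring, where Cxcr4 (0.48) and Gpr183 (0.54) lost their calls, 4 with a floor of 500 and 4 after adjustment. The floor of 500 changed no ratio. It left Gpr183, Cxcr3 and Ccr7 out of both counts, because they lay under it in both libraries. After adjustment for length and GC content 2 genes past 1.5-fold changed sign, S1pr4 to 0.022 and Gna13 to -0.13. A fit on length alone gave -0.85 and 0.089 for these, with no change of sign, and 0.67 for Gpr183, which kept its call; over the 10 genes it gave a median of 0.38, with 5 higher and 1 lower (counts chosen after seeing the data). The cause was not tested. Pseudocounts of 0.5 and 5, floors of 20 and none, and summing rows of a symbol changed no direction of a member. No replicate could be left out and no paired analysis was possible because each group has 1 library. Depth limits Ccr6 most, with 3 reads in the wild type labelled library. Ribosomal protein genes held 4.78% of reads in the Cbl-/-Cblb-/- labelled library and 19.2% in the wild type labelled library. Mitochondrial genome genes held 2.48% in the Cbl-/-Cblb-/- labelled library and 0.82% in the wild type labelled library.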

Other observations

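Of the other G protein-coupled receptors of B cells, 10 passed the floor, with 6 higher by 1.5-fold or more in the Cbl-/-Cblb-/- labelled library and 0 lower, where 38.6% of all genes were higher and 31.9% lower. After adjustment for length and GC content 5 were higher and 1 lower, and on length alone 6 and 1. With a pseudocount of 0.5, or after centring on the median of all genes, 1 was lower. Among the 6, Lpar5 and Lpar6 passed the floor only in the library where they are high, so the count supports nothing further. The median log2 ratio of the 10 was 0.80 (adjusted 0.41). Lpar5, a lysophosphatidic acid receptor gene, had 154 reads in the Cbl-/-Cblb-/- labelled library and 3 in the wild type labelled library, a ratio of 25.1 (8.42 to 123) and an adjusted log2 ratio of 5.68. Like Ccr6, it therefore rests on 3 reads in one library. Gpr174, a receptor for lysophosphatidylserine, had a log2 ratio of 2.15 (adjusted 0.86) and the cannabinoid receptor gene Cnr2 at 1.43 (adjusted 1.38).

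Of 18 other chemokine receptors, 2 passed the floor, both atypical receptors that scavenge chemokines without G protein signalling. Ackr4, which takes up CCL19 and CCL21, had 8.35 FPKM in the Cbl-/-Cblb-/- labelled library and 6.30 FPKM in the wild type labelled library. Ackr2 had 6.14 FPKM in the Cbl-/-Cblb-/- labelled library and 5.99 FPKM in the wild type labelled library. The other 16 had at most 81 reads in the Cbl-/-Cblb-/- labelled library and 53 in the wild type labelled library. For the oxysterol ligands of GPR183, Ch25h and Cyp7b1, which make them, had 0 and 1 reads in the Cbl-/-Cblb-/- labelled library and 2 and 0 in the wild type labelled library. Cyp27a1, a sterol hydroxylase gene, had a log2 ratio of -1.23 (adjusted -0.63) and Hsd3b7, which degrades these oxysterols, at -0.13 (adjusted -0.46).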
